A study of Homo sapiens with 3 samples.

Results

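The promoters of 10 housekeeping genes were examined for binding of Idax (CXXC4), a protein with a CXXC zinc finger. The genes were GAPDH, ACTB, TUBA1B, EEF1A1, PPIA, HSP90AB1, TBP, RPLP0, B2M and YWHAZ, all widely used as reference genes, and the rule that chose them uses no measured value, though earlier results of these data were known when they were chosen. A peak belonged to a gene when its nearest edge lay within 3 kb of the gene's start site on hg19. This rule took 11 of the 17089 peaks of wild-type Idax and 0 of the 38 peaks of its DNA-binding mutant. All 10 start sites lay inside a wild-type peak, and such peaks held 0.685% of the sequence. The share of all promoters with a peak was not computed, so this is not shown to be particular to housekeeping genes.

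Binding was measured by chromatin immunoprecipitation and sequencing in HEK293T, an established line from human embryonic kidney with the SV40 large T antigen. Stable lines carried Myc-tagged wild-type Idax (Myc-Idax), a Myc-tagged DNA-binding mutant (Myc-IdaxDBM) or an empty vector, and an anti-c-Myc agarose gel was used on all 3. Peaks of each tagged protein had been called over the empty-vector cells. The submitters describe 2 replicates of each condition but each tagged protein had 1 list here, so no value below has a replicate error and no test between the proteins was possible. Idax was introduced by transfection, so these lists describe the tagged protein and not the cell's own. The number of reads behind a peak is unknown, and expression of the genes was not measured in these lists.

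A CXXC zinc finger is known to bind DNA that holds CpG, cytosine followed by guanine, when that cytosine is not methylated. Promoters of genes that are active in nearly all cells commonly lie in CpG islands, stretches rich in CpG that stay unmethylated. Genes restricted to a single tissue more often have promoters with few CpG.

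The DNA before the start sites shows what such promoters hold. RefSeq promoter entries, each of 250 bases before and 50 from the start on GRCh38.p14, were matched by symbol for 8 of the 10 genes. No entry was matched for ACTB and YWHAZ. The 250 bases before the start are printed 5′ to 3′ for 5 genes, with every CpG in capitals. They are PPIA (highest peak score of the 10), TUBA1B (most CpG), RPLP0 (high score in a narrow peak), EEF1A1 (a second peak) and B2M (lowest score). These positions are on GRCh38.p14 and are not to be read against the hg19 peak positions below.
PPIA (chr7:44796431-44796680, plus strand): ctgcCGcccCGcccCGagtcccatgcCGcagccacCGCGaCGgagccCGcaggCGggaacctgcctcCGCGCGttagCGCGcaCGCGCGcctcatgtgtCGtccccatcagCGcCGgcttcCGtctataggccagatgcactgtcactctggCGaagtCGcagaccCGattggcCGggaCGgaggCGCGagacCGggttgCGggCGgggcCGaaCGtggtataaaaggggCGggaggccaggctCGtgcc
TUBA1B (chr12:49131396-49131645, minus strand): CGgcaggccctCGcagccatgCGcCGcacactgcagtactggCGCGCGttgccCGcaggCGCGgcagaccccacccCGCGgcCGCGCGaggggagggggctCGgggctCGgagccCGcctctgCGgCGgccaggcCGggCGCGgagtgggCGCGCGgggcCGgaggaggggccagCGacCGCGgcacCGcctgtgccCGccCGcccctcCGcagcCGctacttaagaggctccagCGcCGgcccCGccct
RPLP0 (chr12:120201112-120201361, minus strand): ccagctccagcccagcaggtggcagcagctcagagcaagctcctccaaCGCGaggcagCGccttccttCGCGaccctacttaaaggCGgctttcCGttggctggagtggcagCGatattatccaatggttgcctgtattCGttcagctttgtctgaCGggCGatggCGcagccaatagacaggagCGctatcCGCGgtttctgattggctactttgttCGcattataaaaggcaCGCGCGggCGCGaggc
EEF1A1 (chr6:73521033-73521282, minus strand): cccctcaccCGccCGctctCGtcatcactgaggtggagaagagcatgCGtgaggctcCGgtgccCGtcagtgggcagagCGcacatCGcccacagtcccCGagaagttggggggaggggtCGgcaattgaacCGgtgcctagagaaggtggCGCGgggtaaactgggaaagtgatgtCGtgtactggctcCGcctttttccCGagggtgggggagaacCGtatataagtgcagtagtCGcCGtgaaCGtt
B2M (chr15:44711267-44711516, plus strand): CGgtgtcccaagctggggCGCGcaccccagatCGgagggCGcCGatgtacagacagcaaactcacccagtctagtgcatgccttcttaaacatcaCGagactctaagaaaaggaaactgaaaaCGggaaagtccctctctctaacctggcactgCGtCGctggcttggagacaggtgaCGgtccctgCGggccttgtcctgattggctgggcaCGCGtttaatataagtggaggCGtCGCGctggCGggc
CpG was densest in TUBA1B (38 in these 250 bases) and PPIA (35). It was sparser in RPLP0 (21), EEF1A1 (20) and B2M (18). In the matched genes not printed, the same count was 22 in GAPDH, 18 in HSP90AB1 and 15 in TBP, the fewest of the 8.

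Of the 10 genes, 10 had a wild-type peak within 3 kb of the start site. As background, 3.65% of 514949 adjoining windows of 6001 bp, the same length, were touched by a wild-type peak. On the 5 chromosomes that hold the genes this share ran from 2.50% (chromosome 8) to 4.17% (chromosome 12). Bases inside a wild-type peak made up 0.685% of the sequence, against 10 of 10 start sites. These windows are mostly not promoters. The share of all hg19 promoters with a peak was not computed here, because no hg19 gene table was used, so the count is not shown to be particular to housekeeping genes.

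The mutant list had no peak near any of the 10 genes. Its background was low as well, since 0.00796% of the same windows were touched by a mutant peak. Chromosomes 6, 7, 8, 12 and 15, which carry the 10 genes, held 0 mutant peaks in all, and they held 1023, 884, 564, 847 and 534 wild-type peaks. With 38 mutant peaks in the genome, their absence from 10 windows carries little weight on its own.

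**Figure D1:**
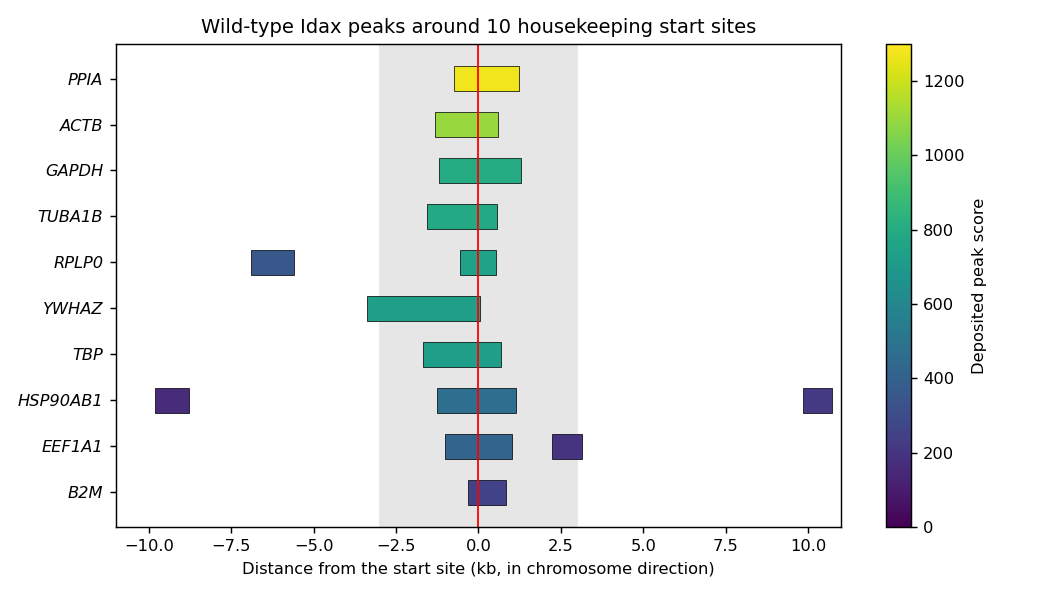
Wild-type Idax peaks around the 10 start sites, drawn by distance from the start site in kb along the chromosome, with genes ordered by the score of the peak at the start site. Bars are peaks coloured by their deposited score, the red line is the start site and the grey band the 3 kb window: all 10 lines cross a peak, and the EEF1A1 window alone holds a second.

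The deposited score of a peak is the authors' value from their peak caller, and it is used here only to order and describe peaks within the wild-type list. A ratio of scores is not a fold of binding, and none is given. The 10 peaks that covered the start sites scored from 256.87 to 1273.86, with a median of 739, against a median of 223 (quartiles 109.3 and 407.8) over all 17089 peaks. All 10 scored above the list's median and 9 above its upper quartile. The best rank here was 145 (PPIA), above 99.2% of wild-type peaks, and the list's highest score was 3100. The list is not limited to promoters, and the scores and widths of peaks at other promoters were not examined.

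The gene of energy metabolism had a peak with a high score. GAPDH encodes glyceraldehyde-3-phosphate dehydrogenase, an enzyme of glycolysis. The peak at its start site (chromosome 12, start site 6643585) ran from 6642401 to 6644882, a width of 2482 bp. It scored 796.65 and ranked 917, above 94.6% of wild-type peaks. It reached 1184 bp upstream and 1297 bp downstream of the start site, nearly evenly.

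Both cytoskeletal genes had peaks with high scores. ACTB encodes beta-actin, the subunit of actin filaments. Its peak (chromosome 7, start site 5570232) ran from 5568905 to 5570814, scored 1097.22 and ranked 293, above 98.3% of the list. It lay 1327 bp to the lower-coordinate side of the start site, the side of the gene body as ACTB is known to be read, and 582 bp to the other. TUBA1B encodes an alpha-tubulin, a subunit of microtubules. Its peak (chromosome 12, start site 49525304) ran from 49523731 to 49525852 and scored 782.61, at rank 968. It too was lopsided toward the gene, with 1573 bp downstream and 548 bp upstream.

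The genes of translation differed from each other. EEF1A1 encodes elongation factor 1-alpha 1, which brings aminoacyl-tRNA to the ribosome. Its peak (chromosome 6, start site 74230755) ran from 74229754 to 74231773, was 2020 bp wide and scored 412.27, at rank 4198. EEF1A1 was the only gene of the 10 with a second peak in its window, at 74232991 to 74233899 with a score of 196.53. That peak began 2236 bp upstream of the start site, on the side of the neighbouring gene SLC17A5, and is the peak just inside the 3 kb limit. RPLP0 encodes a protein of the large ribosomal subunit's stalk. Its peak (chromosome 12, start site 120638910) ran from 120638363 to 120639427 and scored 747.68, at rank 1096, over only 1065 bp. It was the narrowest of the 10 and was centred 15 bp from the start site. The next peak, 5582 bp from the RPLP0 start site (score 354.49), is the closest one outside the limit.

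The chaperone and folding genes held the highest score of the 10 and the third lowest. PPIA encodes cyclophilin A, a prolyl isomerase. Its peak (chromosome 7, start site 44836241) ran from 44835495 to 44837470 and had the highest score of the 10, 1273.86, above 99.2% of the list. It extended 746 bp upstream and 1229 bp downstream. HSP90AB1 encodes the constitutive cytosolic chaperone HSP90-beta. Its peak (chromosome 6, start site 44214848) ran from 44213599 to 44215984, and scored 464.19 at rank 3414, although at 2386 bp it was wider than that of PPIA. Further peaks lay 8766 bp (score 159.38) and 9833 bp (score 222.03) from this start site, outside the window.

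TBP, the TATA-binding protein of basal transcription, had a peak that leaned away from the gene. It ran from 170861724 to 170864096 on chromosome 6 (start site 170863421), scored 722.26 and ranked 1200. It reached 1697 bp upstream and 675 bp downstream, the longest upstream reach of the 8 genes whose strand was in the promoter table. The neighbour on that side is PSMB1, a proteasome subunit gene. The position of a peak does not tell which of the neighbouring promoters it belongs to.

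B2M had the peak with the lowest score and YWHAZ the widest peak. B2M encodes beta-2-microglobulin, the light chain of class I MHC molecules. Its peak (chromosome 15, start site 45003685) ran from 45003375 to 45004508, scored 256.87 and ranked 7599, near the middle of the list (above 55.5% of peaks). It was 1134 bp wide and extended 310 bp upstream and 823 bp downstream. YWHAZ encodes the adaptor protein 14-3-3 zeta. Its peak (chromosome 8, start site 101965623) ran from 101962256 to 101965658, 3403 bp, wider than 99.2% of wild-type peaks, with a score of 729.89. The start site lay 35 bp from the peak's higher-coordinate edge, and 3367 bp of peak lay to the other side, where the gene body is known to be.

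Ordered by score, PPIA and ACTB stood above 1000. Next came GAPDH, TUBA1B, RPLP0, YWHAZ and TBP between 722.26 and 796.65, then HSP90AB1 and EEF1A1 between 412.27 and 464.19, and B2M last. With no replicate, whether neighbours in this order differ is not known. How reads with several matches were placed is not stated in the labels, and many of these genes have processed copies elsewhere. The RefSeq gene table names 87 pseudogenes for PPIA, 65 for GAPDH, 50 for EEF1A1, 14 for ACTB, 12 for RPLP0 and 10 for YWHAZ, and 0 under this naming for TUBA1B, HSP90AB1, TBP and B2M. Only symbols made of the gene's own symbol, P and a number were counted, so 0 does not mean that a gene has no copies. PPIA, with 87, scored 1273.86 and EEF1A1, with 50, scored 412.27. The genes with 0 under this naming scored from 256.87 (B2M) to 782.61 (TUBA1B). The part of such copies in the scores was not tested.

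Peaks at the housekeeping start sites were also wide. Their median width was 2071 bp (range 1065 to 3403), against 1116 bp (quartiles 826 and 1503) over the list, and 8 of 10 were above the list's upper quartile. Across all wild-type peaks, score rose with width (Spearman rho = 0.77 across 17089 peaks, which are not independent). Among the 10 peaks at start sites rho was -0.018 (n = 10, all of 1 list), with narrow RPLP0 scoring about as high as wide YWHAZ. These 10 peaks span only part of the list's range of widths, so the rho values are not directly comparable.

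Set beside peaks of like width (within 10%), 7 of the 10 scored above the median of their width class. PPIA scored above 98.5% of 1358 such peaks, RPLP0 above 98.2% of 3007 and ACTB above 96.6% of 1488. TUBA1B was above 80.9% of its class, GAPDH above 71.6% and TBP above 69.2%. B2M was near the middle of its class (above 54.4%). The other 3 were below the median of theirs, YWHAZ above 45.8%, EEF1A1 above 36.8% and HSP90AB1 above 32.2%. These last 3 scored above the median of the whole list but not above the median of peaks of like width.

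**Figure D2:**
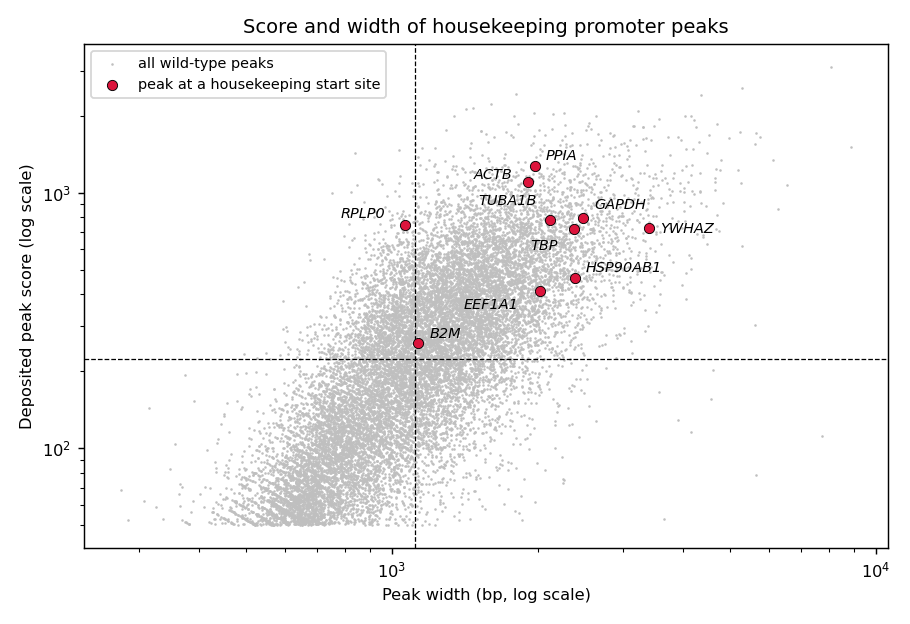
Deposited score against width in bp, both on log scales, for all 17089 wild-type peaks (grey points) and the 10 peaks at housekeeping start sites (red points). Dashed lines are the list's medians (score 223, width 1116 bp): all 10 red points lie above the score median, with RPLP0 the only one left of the width median.

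Around the genes, peak cover was concentrated at the start. Within 3 kb of the 10 start sites, wild-type peaks covered 35.4% of the bases, and from 3 to 50 kb on either side of the same sites they covered 2.62%, a ratio of 13.5. Cover of the window ran from 17.7% at RPLP0 to 50.6% at YWHAZ. In the flanks, cover was highest at ACTB, 8.26% with 7 peaks, and lowest at EEF1A1, 0.153%, all of it the outer end of the second peak in its window. In all, 23 peaks lay in the flanks of 9 genes. Every gene had a higher cover in its window than in its own flanks. The pooled flank value was 2.62%, against 0.685% of the genome as a whole, and EEF1A1 was the only gene whose flank lay below the latter.

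The covered stretch common to the 10 genes ran from 310 bp on the lower-coordinate side to 35 bp on the higher-coordinate side of the start site. At 500 bp, 9 of 10 genes were still covered on either side. At 1000 bp, 7 were covered on the lower-coordinate and 4 on the higher-coordinate side. At 2000 bp only YWHAZ was, on the lower side. Read by the strand of the gene, the 8 genes in the promoter table did not all lean the same way. The longer reach was downstream in 5 and upstream in 3. Some were nearly even, such as EEF1A1 (1018 bp upstream, 1001 bp downstream) and RPLP0 (517 and 547 bp). ACTB and YWHAZ, not in that table, both reached further toward the side where the gene body is known to be.

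**Figure D3:**
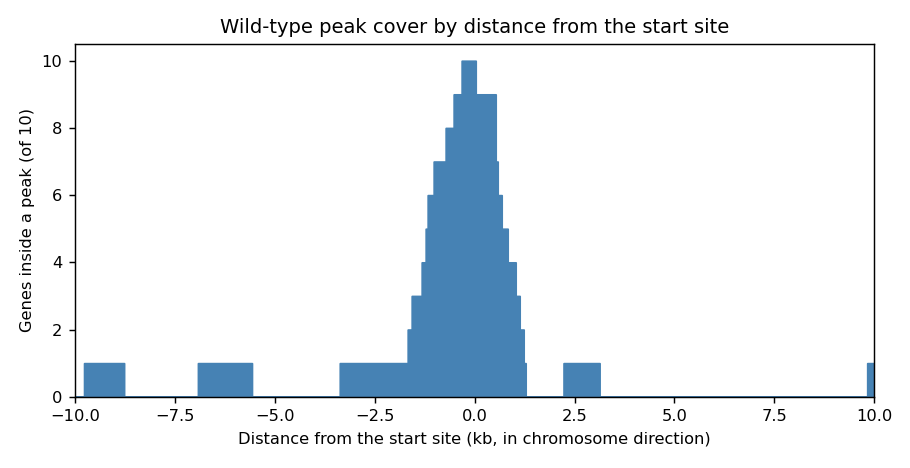
Number of the 10 genes inside a wild-type peak at each distance (kb along the chromosome) from the start site. The count is 10 at the start site, 9 at 500 bp on either side, and at most 1 beyond 2 kb.

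Promoters of the matched genes all held more CpG than the median entry, most of them by a modest margin. Over the 300 bases of an entry, the 8 genes held from 21 CpG (HSP90AB1 and TBP) to 43 (TUBA1B), with a median of 24.5, against a median of 14 over all 35116 entries. CpG occurs in 96.0% of all entries, so its number and not its presence is given. More than 14 CpG were found in 8 of the 8 genes and in 48.9% of all entries. The ratio of observed to expected CpG had a median of 0.877 in the 8 genes and 0.579 over all entries. It was highest in PPIA (1.13), above 98.3% of entries, and lowest in HSP90AB1 (0.656), above 54.7%. The GAPDH entry (28 CpG) starts 747 bases inside the gene as the gene table gives it, and so may not be the start used for the peaks.

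A list of other housekeeping genes had similar promoter sequences. Of 19 such genes, 15 were matched and held a median of 30 CpG (range 10 to 41), and 13 of 15 had more than 14. Of 15 tissue-restricted genes, 11 were matched and held a median of 4 CpG (range 0 to 11), with 0 above 14. Peaks at the genes of these 2 lists were not analysed here, as their hg19 positions were not used.

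Among the 8 genes with an entry, the highest scores went with the most CpG, but this order did not hold among the rest. PPIA (40 CpG, score 1273.86), GAPDH (28, 796.65) and TUBA1B (43, 782.61) were the 3 highest on both measures, and RPLP0 (25, 747.68) was next on both. Among the others, more CpG did not go with a higher score. They were EEF1A1 (24, 412.27), B2M (22, 256.87), HSP90AB1 (21, 464.19) and TBP (21, 722.26). The Spearman rho was 0.73 over these 8 genes, which share 1 list, and is given as a description. It includes GAPDH, whose entry starts 747 bases inside the gene and may not be the start used for its peak. The value without GAPDH was not computed. ACTB (score 1097.22) and YWHAZ (729.89) had no entry and are not in it. CpG was counted in 300 bases and peaks were 1065 to 2482 bp wide in these genes, so most of the sequence under a peak is outside this count.

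**Figure D4:**
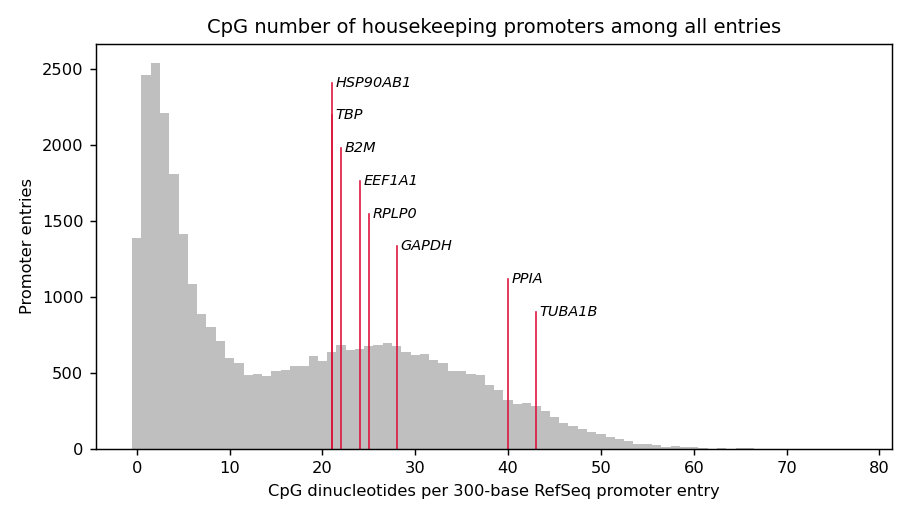
Number of CpG in each 300-base RefSeq promoter entry (x axis) against the number of entries (y axis), for 35116 entries. Red lines mark the 8 matched housekeeping genes, their heights chosen only to separate the names: all stand at 21 CpG or more, to the right of the main body of CpG-poor entries.

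Other short elements varied among the promoters. Each was searched on both strands as exact letters, so other spellings of an element were not counted. TATAAA, a form of the TATA box that TBP binds, was found in 2 of the 8 entries and in 11.5% of all entries. The 2 were PPIA (first base at -31, counted back from the start) and RPLP0 (at -27). CCAAT was found in 4 of 8 (PPIA, TBP, RPLP0 and B2M) and in 34.6% of all entries, with 3 copies in RPLP0. GGGCGG, the GC box, which itself holds a CpG, was found in 6 of 8 and in 45.0% of all entries. The 6 include GAPDH, whose entry may not be of the start used for its peak. PPIA had 4 copies and TUBA1B 3. RPLP0 and B2M had none, and their scores were 747.68 and 256.87. A match is a description of the letters and not of a bound site.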

How the data were processed

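The data were 2 peak lists, wild-type Idax over empty vector and its DNA-binding mutant over empty vector. Reads of the empty-vector cells were not analysed here. Per the submitters' processing notes, Bowtie 0.12.7 and MACS 1.4.1 were used with build hg19, and no source used here states how the 2 replicates of a condition became 1 list. Each deposited list had 5 columns without a header. The fifth is the score of the peak as the authors' peak caller wrote it, whose scale the lists do not state and which grows with sequencing depth. Depth is unknown.

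Starts were converted to 1-based. The nearest peak edge within 3 kb of each hg19 start site was taken. Background windows of 6001 bp adjoined from base 1 to the last wild-type peak of each chromosome, and unassembled sequence was not masked. Sequences and gene names came from RefSeq tables of GRCh38.p14, and nothing was converted between builds. For HSP90AB1, with 3 promoter entries, the entry at the gene's own start was used, and for other lists the first entry of each gene. All 10 genes are named, whatever their values. The genes and lists were chosen with earlier results of these data known. The counting steps were tested on simulated peaks. Alternatives were other windows (1, 5 and 10 kb), peak midpoints, a minimum score of 100, merging within 1 kb, flanks to 100 kb, each gene left out, and upstream sequence only. Python 3.11.15, numpy 2.4.6, pandas 2.3.3 and matplotlib 3.10.9 were used.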

Additional observations from a re-analysis of the deposited data

How the results depend on the processing

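No result moved by more than 1.5 times under the 40 alternatives tried on 7 results. All 10 start sites had a wild-type peak, and 0 had a mutant peak, with windows of 1, 5 or 10 kb and by peak midpoint. The same held at a score of 100 or more, where no mutant peak remains to be counted, and after merging within 1 kb. Most of these counts could not have changed. Every start site lay inside a wild-type peak scoring at least 256.87, so other windows, merging and the score limit had to return 10. The chromosomes of the 10 genes held 0 mutant peaks, so no setting could count a mutant peak. With 1 gene left out at a time, the median score of the peaks at the start sites ran from 729.89 to 747.68 and their median width from 2020 to 2122 bp. The ratio of cover between window and flank was 13.8 with flanks to 100 kb and 14.8 with peaks of score 100 or more. No paired analysis was possible because the replicates of a tagged protein were not given as separate lists, and for the same reason no replicate could be left out. Without an hg19 gene table, the share of all promoters with a peak remains unknown, and without read counts so does the depth behind each score.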
